A study of Homo sapiens with 6 samples.

Results

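Genomic imprinting is the silencing of a gene on the chromosome inherited from 1 parent. The choice of the silent copy is recorded as DNA methylation at control regions, which is set in the germ line and afterwards copied at each cell division by the methyltransferase DNMT1 with UHRF1, a protein that recognises newly replicated, hemimethylated DNA. STUB1, the gene overexpressed here, encodes a ubiquitin ligase that also binds chaperones. The comparison addresses how 10 imprinted genes, H19, IGF2, MEG3, PEG3, PEG10, MEST, PLAGL1, CDKN1C, KCNQ1OT1 and SNRPN, were expressed when STUB1 was raised, since their expression depends on methylation that UHRF1 and DNMT1 keep. The genes were taken by their symbols, and 9 of the 10 were found among the 23569 genes of the expression table. PEG3 was not listed.

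RNA was sequenced from TFK1, an established line of cholangiocarcinoma, a cancer of the bile ducts. The negative control cells (oeNC, n = 3 libraries) and the cells overexpressing STUB1 (oeSTUB1, n = 3 libraries) came from the same line, were made stable with lentiviral vectors and puromycin selection, and received no treatment. Each group is thus a single kind of transduced population, in which an effect of STUB1 and a difference between the populations cannot be told apart. The labels do not say that the libraries of a group came from separate cultures, so the p-values measure the spread between these libraries, which may be technical. Expression is given as FPKM, fragments scaled to gene length and to all fragments of the library. A gene was called higher or lower when limma, fitted to log2(FPKM + 0.1) of the 15353 genes whose mean reached 0.1 FPKM, gave a Benjamini-Hochberg adjusted p under 0.05, and fold changes from that fit carry the standard error (SE).

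Library totals lay between 33106564 and 36744521 fragments. STUB1 was higher in every oeSTUB1 library, at 66.1 ± 7.70 FPKM (SD, n = 3) against 32.3 ± 1.23 FPKM (SD, n = 3) in oeNC (log2 fold change 1.03, SE 0.0966, limma adjusted p = 0.00064). The bile duct markers were present, all 7 reaching 1 FPKM, although KRT19, a defining keratin of this epithelium, was at only 0.453 ± 0.0776 FPKM in oeNC and 2.97 ± 0.454 FPKM in oeSTUB1 (SD, n = 3 each). The summed level of the 7 markers ran from 7370 to 7950 FPKM in oeNC and from 4700 to 6250 FPKM in oeSTUB1, and its part in the other results was not tested. Of the markers of other cell types, 1 of 5 hepatocyte, 1 of 5 fibroblast, 0 of 4 endothelial and 2 of 5 immune genes reached 1 FPKM. The library oeSTUB1 replicate 2 stood apart by gene length. Set against the other oeSTUB1 libraries, its median gene was higher by 0.33 on the log2 scale among genes under 2000 bases and fell by 0.34 among genes over 6000 bases, so results that rest on it are given with and without it.

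Of the 8 imprinted genes that reached the filter, MEG3 and MEST rose with STUB1, PEG10 fell, and 5 did not pass the test. The calls were thus 2 higher and 1 lower of 8, while 7.01% of all genes tested were called higher and 6.59% lower. In 4 of the 8 genes (H19, MEG3, PEG10 and MEST) the groups did not overlap, against 38.8% of all genes tested. The median log2 fold change of the 8 was -0.18, beside 0.02 for all genes tested, with 3 above 0 and 5 below. The genes did not share a direction. Those known as expressed from the maternal chromosome (H19, MEG3, CDKN1C) included 1 called rise and 2 genes that did not pass. Those known as expressed from the paternal chromosome included 1 called fall (PEG10) and 1 called rise (MEST). Parent of origin is given throughout as it is known for each gene, which for some genes holds only in certain tissues. Which copy was expressed in these cells was not measured, so genes grouped by parent of origin may not all be imprinted here.

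The region around the start of a gene bears on imprinted expression because methylation falls on cytosines followed by guanine (CpG). Start windows from the RefSeq promoter table (GRCh38.p14, 250 bases before to 50 after the start) were found for 5 of the 10 genes. Those of MEG3, MEST and H19 are shown because these genes differed most clearly among the matched ones, and those of DIRAS3 and CPA4 because these were the other imprinted genes that rose. CpG sites are in capitals and the rest in lower case, read 5′ to 3′ on the gene's own strand. Where a gene had several starts, the window with the most CpG sites is given.
MEG3 (chr14:100825858-100826157, plus strand): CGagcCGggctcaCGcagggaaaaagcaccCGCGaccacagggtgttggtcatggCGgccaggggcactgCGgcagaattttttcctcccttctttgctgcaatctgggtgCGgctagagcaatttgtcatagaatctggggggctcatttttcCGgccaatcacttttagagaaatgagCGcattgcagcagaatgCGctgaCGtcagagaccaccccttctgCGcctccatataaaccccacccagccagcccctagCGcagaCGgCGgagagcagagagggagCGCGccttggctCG
MEST (chr7:130491835-130492134, plus strand): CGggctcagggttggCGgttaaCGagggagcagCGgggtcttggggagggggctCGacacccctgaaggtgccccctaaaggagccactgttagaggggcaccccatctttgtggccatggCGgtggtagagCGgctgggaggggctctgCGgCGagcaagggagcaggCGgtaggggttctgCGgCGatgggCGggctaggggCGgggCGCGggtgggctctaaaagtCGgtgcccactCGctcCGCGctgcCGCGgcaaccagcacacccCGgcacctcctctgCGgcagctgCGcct
H19 (chr11:2001217-2001516, minus strand): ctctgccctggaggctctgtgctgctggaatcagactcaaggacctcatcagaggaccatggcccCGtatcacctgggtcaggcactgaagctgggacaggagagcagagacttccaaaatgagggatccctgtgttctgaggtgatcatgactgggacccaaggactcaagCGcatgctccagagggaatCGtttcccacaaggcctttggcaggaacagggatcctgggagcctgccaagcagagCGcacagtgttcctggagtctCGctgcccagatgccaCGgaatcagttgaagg
DIRAS3 (chr1:68050578-68050877, minus strand): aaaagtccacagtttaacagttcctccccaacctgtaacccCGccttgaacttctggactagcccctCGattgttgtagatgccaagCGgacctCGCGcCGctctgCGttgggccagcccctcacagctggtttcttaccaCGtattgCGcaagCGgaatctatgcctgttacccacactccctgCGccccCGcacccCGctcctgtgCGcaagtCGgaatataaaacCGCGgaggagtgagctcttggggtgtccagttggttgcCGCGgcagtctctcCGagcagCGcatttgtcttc
CPA4 (chr7:130292911-130293210, plus strand): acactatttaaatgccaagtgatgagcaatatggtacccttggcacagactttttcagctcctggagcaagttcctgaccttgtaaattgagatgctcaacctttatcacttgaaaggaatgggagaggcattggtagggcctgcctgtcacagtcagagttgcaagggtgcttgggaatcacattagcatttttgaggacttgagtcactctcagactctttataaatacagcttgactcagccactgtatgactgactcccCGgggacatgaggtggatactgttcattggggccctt

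The windows of the genes that rose were not alike. They held 19 CpG sites in MEG3, 25 in MEST and 21 in DIRAS3, but 1 in CPA4, and H19 held 6. The median over all 35116 windows of the table was 14, with quartiles of 4 and 28. The letters TGCCGC, which the imprint protein ZFP57 binds when methylated, were searched on both strands. They occurred 1 time in MEG3, 3 times in MEST, 2 times in DIRAS3 and 0 times in H19 and CPA4, and 16.7% of all windows hold them at least 1 time. MEG3 and MEST were represented by their window richest in CpG, which tilts both comparisons with all windows. The other MEST windows held 13, 22, 16 and 22 CpG sites and 1, 1, 0 and 2 copies of these letters. The other MEG3 windows held 17 and 18 sites, each with 1 copy. The windows cover gene starts only, and control regions that lie elsewhere were not searched. A count of 0 therefore does not show that the control region of a gene lacks these letters, and the CpG counts do not describe the imprint. Methylation itself was not analysed here.

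**Figure D1:**
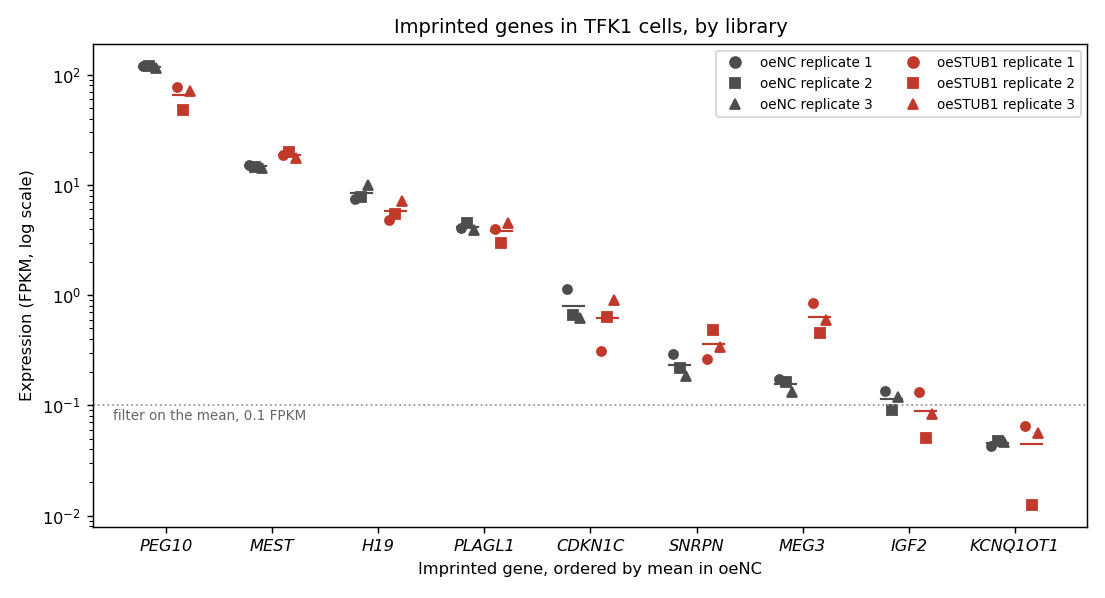
Expression of the 9 listed imprinted genes (FPKM, log axis) in the 3 oeNC and 3 oeSTUB1 libraries of TFK1 cells, ordered by the oeNC mean. Points are libraries, short lines are group means and the dotted line is the filter at 0.1 FPKM. MEG3 lies between 0.131 and 0.174 in oeNC and between 0.454 and 0.851 in oeSTUB1, and PEG10 falls from above 100 to between 47.7 and 77.2.

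Levels differed widely between the imprinted genes in the control cells. The oeNC means descended in FPKM from PEG10 (118) through MEST (14.7), H19 (8.41), PLAGL1 (4.16), CDKN1C (0.800), SNRPN (0.232), MEG3 (0.157) and IGF2 (0.115) to KCNQ1OT1 (0.0458). Neighbours in this order did not overlap between libraries, except MEG3 and IGF2, which lay at 0.131 to 0.174 and 0.0916 to 0.135 FPKM. In oeSTUB1 the order was the same from PEG10 to PLAGL1. MEG3 (0.632) then stood beside CDKN1C (0.619), and their ranges over libraries overlapped. PLAGL1 at most 4.49 FPKM stayed below H19, at least 4.84 FPKM. The order is one of FPKM, which divides by gene length. KCNQ1OT1, with a recovered length of 91671 bases, had 137 to 157 fragments in oeNC, above the 44 to 76 of CDKN1C. SNRPN and IGF2 overlap other entries on their own strand, so their levels and places in the order may be understated.

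MEG3, a maternally expressed long noncoding RNA described as a growth suppressor, showed the largest fold change of the 8 on the log2(FPKM + 0.1) scale, though not with a pseudocount of 1, where PEG10 at -0.88 moved further. It lies at chr14:100779410-100861031 on the plus strand (GENCODE release 29, GRCh38, as for all gene positions given). It was at 0.174, 0.164 and 0.131 FPKM in oeNC replicates 1, 2 and 3 and at 0.851, 0.454 and 0.590 FPKM in oeSTUB1. All oeSTUB1 libraries were above all oeNC libraries, and replicate 2 was the lowest of the 3. The means were 0.157 ± 0.0225 and 0.632 ± 0.202 FPKM (SD, n = 3 each), a 4.04-fold ratio. The log2 fold change was 1.48 (SE 0.241, limma adjusted p = 0.0067), and without oeSTUB1 replicate 2 it was 1.66 (adjusted p = 0.003). The pseudocount draws low values together, so the log2 ratio of the means without it was larger, at 2.01, and with a pseudocount of 1 the fold change was 0.49 with the call kept. The values rested on 64, 60 and 51 fragments in oeNC and 310, 159 and 213 in oeSTUB1, so MEG3 stayed a low transcript in all 6 libraries. Because bulk RNA was measured, fewer cells expressing a gene and less RNA per cell cannot be told apart.

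The neighbours of MEG3 in its chromosome 14 domain did not pass the test or were near 0. BEGAIN, the nearest tested gene on one side, was at 0.164 ± 0.0411 FPKM in oeNC and 0.274 ± 0.111 in oeSTUB1 (SD, n = 3 each, log2 fold change 0.48, limma adjusted p = 0.28). DIO3OS on the other side was at 0.283 ± 0.0284 and 0.371 ± 0.0555 FPKM (adjusted p = 0.34). DLK1, the paternally expressed Notch ligand of the domain, was not listed. MEG8 had 1, 3 and 1 fragments in oeNC and 4, 8 and 3 in oeSTUB1, and RTL1, a retrotransposon-derived gene, had 1, 1 and 1 against 1, 4 and 1. MEG9, a maternally expressed RNA of the domain, had 1, 1 and 2 against 0, 9 and 4. The means of MEG8, MEG9 and RTL1 were all higher in oeSTUB1, but none of these genes reached the filter. These counts stand near the floor of 3 fragments, where a change was not detectable at this depth.

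PEG10, a paternally expressed gene derived from a retrotransposon and active in placenta and several carcinomas, was by far the most abundant of the 9 genes. It lies at chr7:94656325-94669695 on the plus strand. It was at 120, 120 and 115 FPKM in oeNC and at 77.2, 47.7 and 70.9 FPKM in oeSTUB1. The control libraries were close together, all oeSTUB1 libraries were below them, and replicate 2 was again the lowest. The means were 118 ± 3.25 and 65.3 ± 15.5 FPKM (SD, n = 3 each), 1.81-fold lower in oeSTUB1. The log2 fold change was -0.89 (SE 0.167, limma adjusted p = 0.013). Without oeSTUB1 replicate 2 it was -0.68 (adjusted p = 0.00021), so the fall did not rest on that library. Without oeNC replicate 1, 2 or 3 the adjusted p was 0.055, 0.055 and 0.050, and the call was lost each time at a fold change between -0.91 and -0.87.

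SGCE, a sarcoglycan gene that is also expressed from the paternal chromosome and starts beside PEG10 on the opposite strand, was level between the groups. It was at 13.8, 12.0 and 13.1 FPKM in oeNC and at 11.9, 14.1 and 12.7 FPKM in oeSTUB1, with ranges that overlapped (log2 fold change -0.01, SE 0.0952, limma adjusted p = 0.94). The ratio of PEG10 to SGCE within a library was 8.73, 9.99 and 8.73 in oeNC and 6.49, 3.40 and 5.60 in oeSTUB1. The log2 ratio differed by -0.87 between the groups (exact permutation test, two-sided, p = 0.1, which is the least that 3 libraries against 3 allow). The other neighbours did not pass, with TFPI2, a protease inhibitor, at 114 ± 3.52 and 138 ± 24.5 FPKM (adjusted p = 0.23) and PPP1R9A at 2.73 ± 0.0986 and 2.52 ± 0.694 FPKM (adjusted p = 0.66, SD, n = 3 each). PEG10 and SGCE overlap at their starts, and whether counting used strand is not given in the sources used here, so fragments there may be shared.

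MEST, a paternally expressed gene encoding a hydrolase-like protein, rose by a small amount. It lies at chr7:130486171-130506465 on the plus strand. It was at 15.3, 14.6 and 14.3 FPKM in oeNC and at 18.8, 19.8 and 17.5 FPKM in oeSTUB1. Every oeSTUB1 library exceeded every oeNC library. The means were 14.7 ± 0.531 and 18.7 ± 1.16 FPKM (SD, n = 3 each), a 1.27-fold ratio, and the log2 fold change was 0.34 (SE 0.0805, limma adjusted p = 0.030). Without oeSTUB1 replicate 2 it was 0.30 (adjusted p = 0.010). The call was lost without oeNC replicate 1, 2 or 3 (adjusted p = 0.096, 0.14 and 0.12) and without oeSTUB1 replicate 1 (adjusted p = 0.076).

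COPG2, a coat protein gene that lies next to MEST on the opposite strand and overlaps it, moved the other way without passing the test, at 11.9 ± 0.463 FPKM in oeNC and 10.6 ± 1.04 in oeSTUB1 (SD, n = 3 each, log2 fold change -0.18, limma adjusted p = 0.26). The ratio of MEST to COPG2 was 1.26, 1.19 and 1.25 in oeNC and 1.60, 1.92 and 1.80 in oeSTUB1. These ratios did not overlap between the groups (difference 0.52 on the log2 scale, exact permutation test, two-sided, p = 0.1, again the least possible), and fragments in the stretch where the genes overlap may be shared between them. CEP41, on the other side, was at 1.94 ± 0.0819 and 2.21 ± 0.0640 FPKM (limma adjusted p = 0.30).

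CPA4, a carboxypeptidase gene of the same chromosome 7 domain that is expressed from the maternal chromosome in some tissues, showed the largest fold change of all 36 imprinted genes tested. It lies at chr7:130293134-130324180 on the plus strand. It was at 0.207, 0.279 and 0.419 FPKM in oeNC and at 3.06, 2.68 and 2.80 FPKM in oeSTUB1, far apart in every library. The log2 fold change was 2.91 (SE 0.205, limma adjusted p = 0.0002), and the means stood 9.44-fold apart. It was called in all 16 alternatives. The ratio of CPA4 to MEST within a library was at most 0.0294 in oeNC and at least 0.136 in oeSTUB1. The plot of 4 imprinted loci sets these genes beside their neighbours.

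**Figure D2:**
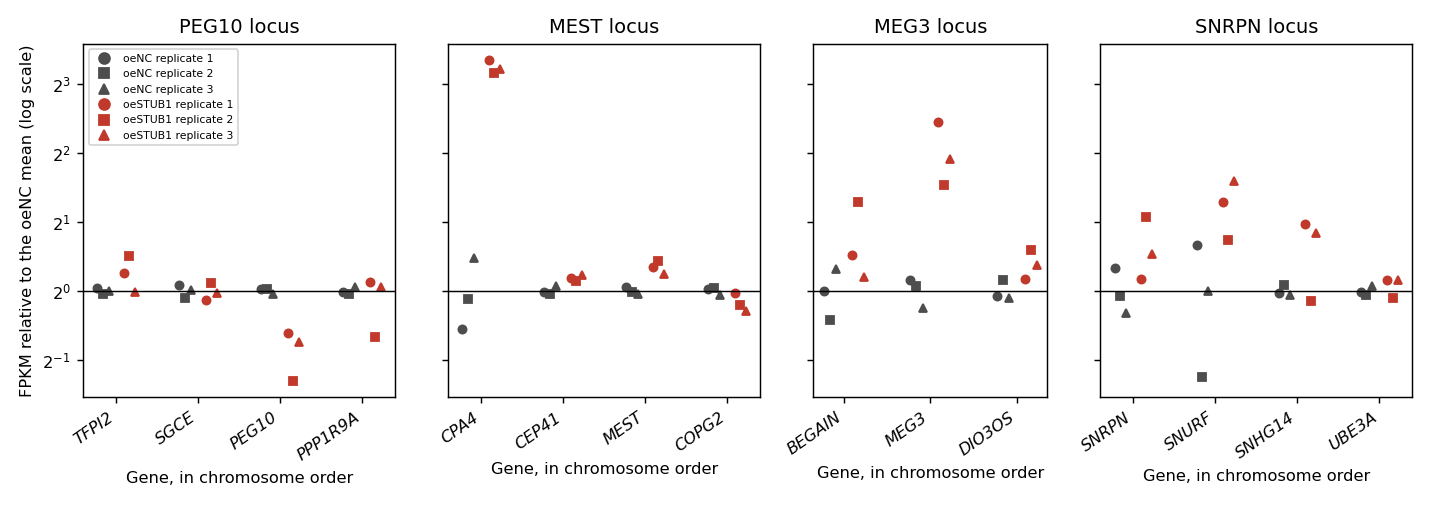
FPKM of genes at the PEG10, MEST, MEG3 and SNRPN loci in each library, relative to the oeNC mean of the gene (log axis), with oeNC in grey and oeSTUB1 in red and the marker shape giving the replicate. Genes are in chromosome order. PEG10 is lower in all oeSTUB1 libraries beside a level SGCE, and CPA4 and MEG3 stand above their neighbours.

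H19, a maternally expressed noncoding RNA that shares enhancers with the neighbouring IGF2, was lower in oeSTUB1 but did not pass the test. It lies at chr11:1995176-2001470 on the minus strand. It was at 7.47, 7.84 and 9.92 FPKM in oeNC and at 4.84, 5.43 and 7.20 FPKM in oeSTUB1. The groups did not overlap, with the highest oeSTUB1 library, replicate 3, just under the lowest oeNC library. The means were 8.41 ± 1.32 and 5.82 ± 1.23 FPKM (SD, n = 3 each), and the log2 fold change was -0.53 (SE 0.168, limma adjusted p = 0.078). It passed without oeSTUB1 replicate 3 (log2 fold change -0.69, adjusted p = 0.032) but not without replicate 2 (-0.49, adjusted p = 0.084).

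IGF2, the paternally expressed growth factor controlled from the same region, was close to the filter in both groups. It lies at chr11:2129112-2149603 on the minus strand, and a further IGF2 entry at chr11:2129112-2158658 on that strand contains it. How fragments that fit both entries were counted is not given in the sources used here, so its level and its ratio to H19 may be understated. IGF2 was at 0.135, 0.0916 and 0.119 FPKM in oeNC and 0.132, 0.0503 and 0.0841 FPKM in oeSTUB1, on 31, 21 and 29 against 30, 11 and 19 fragments. The groups overlapped and the log2 fold change was -0.21 (SE 0.265, limma adjusted p = 0.64). The gene passed the filter through the oeNC group alone. The ratio of IGF2 to H19 differed by 0.07 on the log2 scale (two-sided exact permutation test, p = 1.0). Beside this pair, LINC01219 next to H19 was at 0.503 ± 0.296 and 0.122 ± 0.0804 FPKM, and CD81, a membrane protein gene next to IGF2, at 74.5 ± 2.81 and 91.5 ± 17.0 FPKM (SD, n = 3 each), and neither passed (limma adjusted p = 0.080 and 0.18).

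CDKN1C and KCNQ1OT1 lie together in the neighbouring chromosome 11 domain. KCNQ1OT1, a long paternally expressed antisense RNA that silences its neighbours on the same chromosome, is at chr11:2608328-2699994 on the minus strand within KCNQ1. It did not reach the filter, with a level of 0.0458 ± 0.00248 FPKM in oeNC (SD, n = 3) against 0.0444 ± 0.0280 in oeSTUB1 (SD, n = 3). It had 137, 152 and 157 fragments in oeNC and 204, 38 and 176 in oeSTUB1. Replicate 2 of oeSTUB1 was far below all other libraries and the other 2 were above all oeNC libraries, and the recovered length of this gene is 91671 bases.

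CDKN1C, the maternally expressed inhibitor of cyclin-dependent kinases p57, is at chr11:2883213-2885773 on the minus strand. It was at 1.13, 0.654 and 0.617 FPKM in oeNC and at 0.314, 0.638 and 0.905 FPKM in oeSTUB1. Libraries of either group spread widely and overlapped (log2 fold change -0.37, SE 0.351, limma adjusted p = 0.52). Single libraries moved the fold change, to -0.02 without oeSTUB1 replicate 1, -0.66 without oeSTUB1 replicate 3 and -0.12 without oeNC replicate 1, and it was not called in any of these. Of the genes near it, PHLDA2, a maternally expressed regulator of placental growth (9.61 ± 0.593 and 8.86 ± 1.80 FPKM, SD, n = 3 each), and KCNQ1, a potassium channel gene (0.323 ± 0.0584 and 0.288 ± 0.0949 FPKM), also did not pass (limma adjusted p = 0.57 and 0.73). PHLDA2 did pass without oeSTUB1 replicate 2 (log2 fold change -0.29, limma adjusted p = 0.021). SLC22A18, a maternally expressed transporter gene at chr11:2899721-2925246, lies between CDKN1C and PHLDA2, so it is a nearer neighbour than PHLDA2, and it fell. It was at 12.9, 14.7 and 14.1 FPKM in oeNC and at 6.86, 10.4 and 9.40 FPKM in oeSTUB1 (log2 fold change -0.66, SE 0.151, limma adjusted p = 0.027), and its call was lost without oeNC replicate 1, 2 or 3 (adjusted p between 0.071 and 0.11) and without oeSTUB1 replicate 3 (adjusted p = 0.050).

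PLAGL1, a paternally expressed zinc finger transcription factor, is at chr6:143940300-144064599 on the minus strand. It was at 4.08, 4.52 and 3.87 FPKM in oeNC and at 3.97, 2.95 and 4.49 FPKM in oeSTUB1. The groups overlapped (log2 fold change -0.14, SE 0.159, limma adjusted p = 0.59), and the sign rested on oeSTUB1 replicate 2, without which the value was 0.02. Its neighbours did not pass either, with LTV1 at 18.1 ± 0.787 and 21.6 ± 1.70 FPKM and SF3B5, a splicing factor subunit gene, at 76.7 ± 5.59 and 101.0 ± 26.7 FPKM (SD, n = 3 each, limma adjusted p = 0.088 and 0.20).

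SNRPN, a paternally expressed splicing protein gene of the Prader-Willi region, is at chr15:24823637-24978723 on the plus strand. It was at 0.291, 0.220 and 0.186 FPKM in oeNC and at 0.261, 0.486 and 0.335 FPKM in oeSTUB1, with 1 oeSTUB1 library within the oeNC range (log2 fold change 0.46, SE 0.247, limma adjusted p = 0.26). On the same strand, SNURF lies within SNRPN and the host RNA SNHG14 overlaps its end. How fragments that fit more than 1 of these genes were counted is not given in the sources used here. They may have been divided among the 3 symbols or left out. SNURF was at 0.124 ± 0.0718 and 0.293 ± 0.0834 FPKM (SD, n = 3 each, log2 fold change 0.84, adjusted p = 0.11). SNHG14 was at 2.52 ± 0.128 and 3.91 ± 1.43 FPKM (0.54, adjusted p = 0.21), with 2.28 FPKM in oeSTUB1 replicate 2 and 4.93 and 4.51 in replicates 1 and 3. It was called higher without oeSTUB1 replicate 2. UBE3A, a ubiquitin ligase gene at the other end of the region, is maternally expressed in some tissues only. It was level at 6.48 ± 0.277 and 6.81 ± 0.689 FPKM (adjusted p = 0.70). SNHG14 overlaps UBE3A on the opposite strand, so fragments there may also be affected.

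Beyond the 10 genes, 43 further imprinted genes were listed by parent of origin, 35 of them in the table and 28 tested. Of these, 2 were higher (CPA4 and DIRAS3), 1 was lower (SLC22A18), and 25 did not pass. The called share in either direction was 10.7%, beside 7.01% higher and 6.59% lower among all genes tested. Whether these shares differ was not tested. The median log2 fold change was -0.01. Among the paternally expressed genes 1 of 11 tested was called and it was higher, and among the maternally expressed genes 1 of 17 was higher and 1 lower. DIRAS3, a paternally expressed RAS-related gene with growth-suppressing activity, was at 0.0973, 0.195 and 0.202 FPKM in oeNC and at 0.627, 0.428 and 0.929 FPKM in oeSTUB1. The groups did not overlap (log2 fold change 1.50, SE 0.297, limma adjusted p = 0.016), but without oeNC replicate 1 the adjusted p was 0.059. It rested on 5, 10 and 11 fragments in oeNC and 32, 21 and 47 in oeSTUB1, and its fold change was 0.50 with a pseudocount of 1 and 2.01 as the log2 ratio of the means.

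Of the imprinted genes that averaged 5 FPKM or more in either group, PEG10, MEST and SLC22A18 were called and the others, H19 among them, did not pass. GNAS, encoding a G protein subunit, was at 85.7 ± 0.874 and 86.9 ± 5.40 FPKM (SD, n = 3 each). NLRP2 was at 20.5 ± 0.524 and 20.0 ± 0.475 FPKM, NAA60 at 16.1 ± 1.41 and 16.9 ± 0.479 FPKM, and the retinoblastoma gene RB1 at 13.2 ± 0.361 and 13.3 ± 1.80 FPKM. The receptor gene IGF2R, which takes up the IGF2 protein, was at 14.7, 14.9 and 15.3 FPKM in oeNC and at 14.9, 8.09 and 16.1 FPKM in oeSTUB1, so that replicate 2 alone stood low. SLC22A3, a transporter gene near IGF2R, was at 10.1 ± 0.190 and 11.9 ± 1.18 FPKM (SD, n = 3 each, limma adjusted p = 0.14). None of these passed the test in all 6 libraries, and SLC22A3 did without oeSTUB1 replicate 2 (log2 fold change 0.31, adjusted p = 0.0089).

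**Figure D3:**
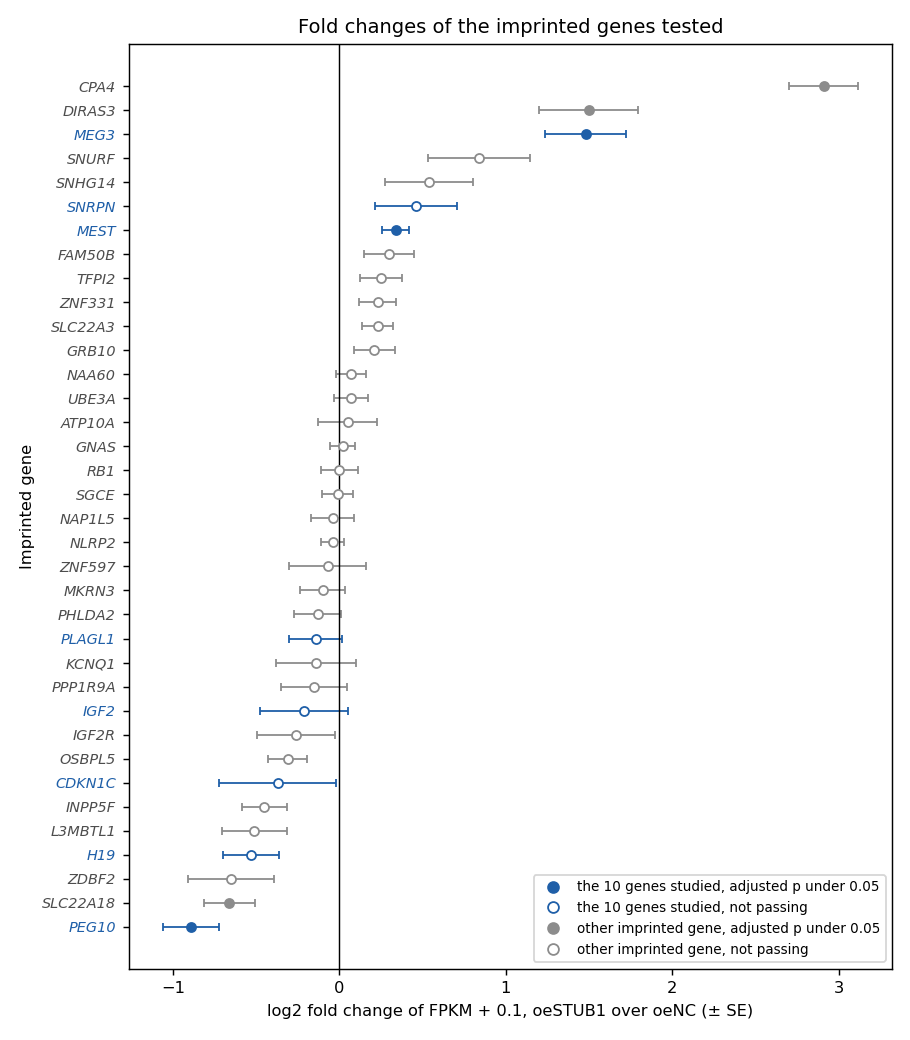
log2 fold change of FPKM + 0.1 (oeSTUB1 over oeNC, bars are SE, 3 libraries a group) for the 36 imprinted genes tested, with the 8 described first in blue, the other 28 in grey and filled points for an adjusted p under 0.05. Most genes lie near 0, with CPA4, DIRAS3, MEG3 and MEST filled on the right and SLC22A18 and PEG10 filled on the left.

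The genes that set, read and keep imprints were next compared. Of 28 such genes, 24 were listed and 20 tested, and 0 were called higher and 1 lower by limma, with 4 at an unadjusted p under 0.05. That is 5.0% called in either direction, beside 7.01% higher and 6.59% lower among all genes tested. It rests on 1 gene, and whether the shares differ was not tested. The median log2 fold change was near 0. UHRF1 was at 11.6, 11.1 and 10.7 FPKM in oeNC and at 15.5, 12.2 and 12.9 FPKM in oeSTUB1, without overlap (log2 fold change 0.27, SE 0.104, limma adjusted p = 0.13). It passed only without oeSTUB1 replicate 2 (adjusted p = 0.024). DNMT1 was at 29.1, 28.4 and 30.0 FPKM in oeNC and at 32.3, 23.6 and 30.8 FPKM in oeSTUB1, where the groups overlapped (log2 fold change -0.03, adjusted p = 0.90).

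DNMT3B, one of the methyltransferases that place new methylation, was the gene that fell. It lies at chr20:32762385-32809356 on the plus strand. It was at 18.4, 18.5 and 15.4 FPKM in oeNC and at 8.12, 5.41 and 7.42 FPKM in oeSTUB1, clearly separated (log2 fold change -1.32, SE 0.157, limma adjusted p = 0.0017). It was called in all 16 alternatives, with an adjusted p of at most 0.012. DNMT3A was at 2.15 and 1.68 FPKM (mean of each group, n = 3, adjusted p = 0.20). ZFP57 was near 0, and TRIM28 (165 ± 9.95 and 184 ± 21.0 FPKM), which ZFP57 recruits, and CTCF (25.2 ± 0.963 and 25.7 ± 1.34 FPKM), which insulates IGF2 from H19 enhancers, did not pass (SD, n = 3 each, adjusted p = 0.38 and 0.87). SETDB1, EHMT1 and EHMT2, histone H3 lysine 9 methyltransferases, and RAD21, EED, EZH2, HELLS, SMCHD1 and ARID4B had adjusted p-values of at least 0.12.

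**Figure D4:**
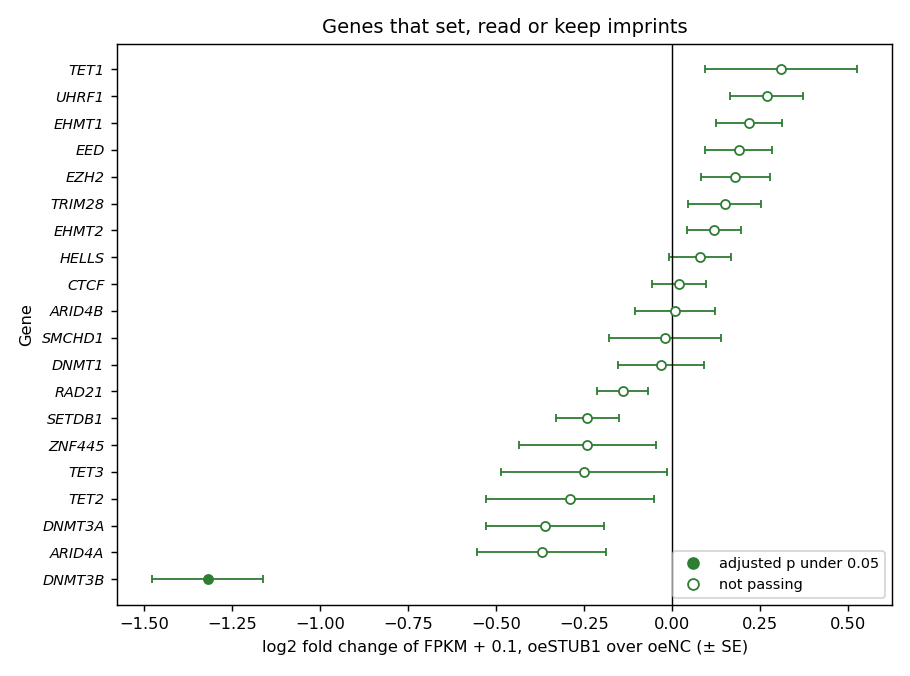
log2 fold change of FPKM + 0.1 (oeSTUB1 over oeNC, bars are SE, 3 libraries a group) for the 20 tested genes that set, read or keep imprints. DNMT3B is the only filled point, at -1.32, and UHRF1 lies at 0.27 and DNMT1 at -0.03.

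Among 10 partners and paralogs of the imprinted genes, 9 were tested, 1 was higher and 2 were lower, where 7.01% of all genes tested were higher and 6.59% lower. CDKN1A, the p21 relative of CDKN1C, rose from 25.6 ± 0.637 to 34.5 ± 1.81 FPKM (SD, n = 3 each, log2 fold change 0.43, SE 0.0741, limma adjusted p = 0.0086). IGF2BP3, an RNA-binding protein named for its binding of IGF2 RNA, fell from 14.1 ± 0.175 to 10.4 ± 1.43 FPKM (log2 fold change -0.45, adjusted p = 0.033). The insulin receptor gene INSR fell from 2.97 ± 0.309 to 1.73 ± 0.501 FPKM (log2 fold change -0.78, adjusted p = 0.05 after rounding up from just under the threshold). IGF1R (31.5 ± 0.548 and 24.3 ± 5.58 FPKM, adjusted p = 0.14) and IGF2BP1 (23.4 ± 0.728 and 17.6 ± 3.51 FPKM, adjusted p = 0.089) were lower in every oeSTUB1 library but did not pass. Both passed without oeSTUB1 replicate 2 (log2 fold changes of -0.20 and -0.26, limma adjusted p = 0.036 and 0.012) and after a lowess fit to gene length was removed (adjusted p = 0.016 and 0.0068). CDKN1B, the other relative of CDKN1C, and SNRPB, the paralog of SNRPN, did not pass (adjusted p = 0.26 and 0.45). Without oeNC replicate 1, 2 or 3 the calls of CDKN1A (adjusted p from 0.050 to 0.055), IGF2BP3 (0.10 to 0.12) and INSR (0.12 to 0.17) were lost. IGF2BP3 was also lost without oeSTUB1 replicate 3 (0.073), and INSR without oeSTUB1 replicate 1 (0.052) or 3 (0.063). Over 16 alternatives IGF2BP3 was called in 9 and INSR in 7.

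The standing of oeSTUB1 replicate 2 differed between the imprinted genes. On the log2(FPKM + 0.1) scale it fell by 0.63 below the mean of replicates 1 and 3 for PEG10, by 0.55 for MEG3, by 0.50 for PLAGL1 and by 0.46 for IGF2, whose recovered lengths run from 5552 to 10570 bases. The shorter MEST, CDKN1C and SNRPN stood above it, by 0.13, 0.19 and 0.56, and H19 fell by 0.12. The other imprinted genes did not all follow length, as the short DIRAS3 (1481 bases) fell by 0.71 and SNURF (2207 bases) by 0.51, while the long L3MBTL1 (6603 bases) stood above by 0.28 and GNAS (7520 bases) by 0.15. The same 3 calls among the 8 genes, MEG3, MEST and PEG10, were made without this library.

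**Figure D5:**
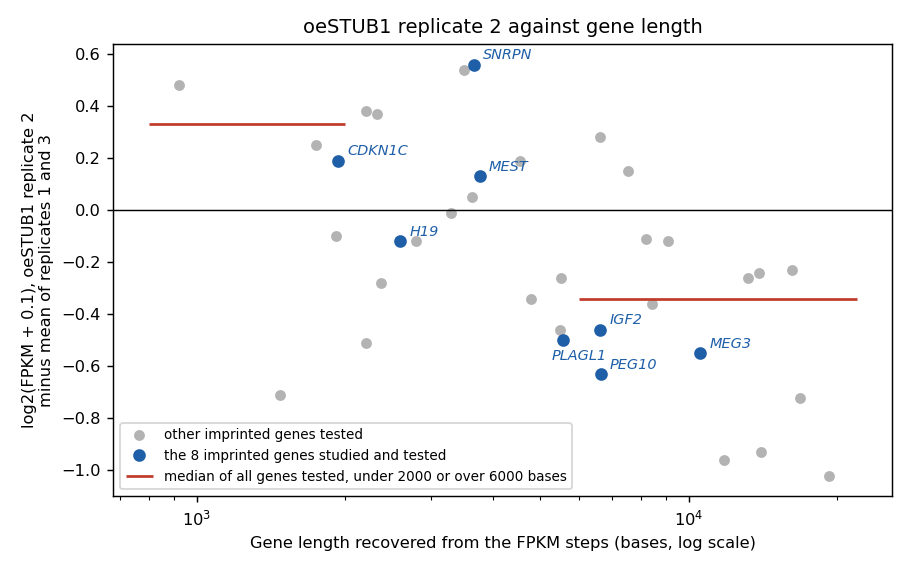
Difference of oeSTUB1 replicate 2 from the mean of oeSTUB1 replicates 1 and 3 on the log2(FPKM + 0.1) scale, against recovered gene length (log axis), for the 8 tested genes (blue) and the 28 other imprinted genes (grey). Red lines are medians of all tested genes, 0.33 under 2000 bases and -0.34 over 6000 bases, and PEG10, MEG3, PLAGL1 and IGF2 all lie below 0.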

How the data were processed

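RNA-seq of 6 TFK1 libraries was used, 3 oeNC and 3 oeSTUB1, grouped by their labels. The authors deposited FPKM values for 23569 genes by symbol. The submitters' processing notes name fastp 0.20.1, HISAT2 2.1.0, HTSeq 0.11.2, DESeq2 1.22.2, R 3.2.0 and the build GRCh38.p13, and the annotation and strand setting are not given in the sources used here. Value columns of no sample numbered 0. Because FPKM steps are whole multiples of 1 fragment, whole fragments were recovered for all 23569 genes (largest FPKM difference 4.9e-06). Since the shortest fitting length was used, fragments of a gene may be understated by a shared factor, and 3 fragments were taken as the floor. Replicates differed by more than sampling noise (chi-square per degree of freedom from 3.37 to 76.7), so none was a copy.

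limma 3.58.1 in R 4.3.3 (eBayes with an intensity trend, two-sided) was fitted to log2(FPKM + 0.1) of the 15353 genes averaging 0.1 FPKM or more, with Benjamini-Hochberg adjustment over all of them. Recovery and test were checked on simulated data, where 200 of 200 genes changed 4-fold were called, with 15 unchanged genes called among 15280 tested. The simulation gave all genes the same spread beyond sampling noise and had no length shift in oeSTUB1 replicate 2. Its changed genes all averaged more FPKM than MEG3 or DIRAS3, so it did not check calls at such low levels. Ratios within libraries were compared by exact permutation tests, and other steps used Python 3.11.15. The settings varied were the pseudocount (1 or 0.01), the filter (none or 1 FPKM), the scaling (median-ratio or quantile), the trend (none), a replicate block, the omission of single libraries, and limma-voom on recovered fragments. A lowess correction for gene length and the log2 ratio of mean FPKM were added after the data were seen.

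The genes named are the 10 imprinted genes, the nearest tested neighbours of each, STUB1, and genes of the other lists with an adjusted p under 0.05 or a mean of at least 5 FPKM in either group. Neighbours came from a RefSeq gene order that lacked SLC22A18, so PHLDA2 was taken in its place for CDKN1C. Other genes named (DLK1, DNMT3A, L3MBTL1, MEG8, MEG9, RTL1, ZFP57) were picked for their known roles after their values were seen. The members and lists were chosen with earlier results of these data known. Gene positions are from GENCODE release 29 and promoter windows from RefSeq (GRCh38.p14).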

Additional observations from a re-analysis of the deposited data

How the results depend on the processing

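The calls of MEG3, CPA4 and DNMT3B were kept in every alternative that tested them. Among the 8 genes the number higher was 2, and 1 with a filter at a mean of 1 FPKM (MEG3 is below it), without the trend, and with the replicate block. The number lower was 1, and 2 with the replicate block and with the lowess correction, where H19 joined. Leaving out 1 library gave 1 to 2 higher and 0 to 2 lower.

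Of the other imprinted genes, 2 were higher, with 1 at a mean of at least 1 FPKM and 4 with the lowess correction, and 1 to 4 when 1 library was left out. The number lower was 1, but 0 without a filter, 0 without the trend, 2 with quantile normalization, 2 with limma-voom on recovered fragments and 3 with the lowess correction, and 0 to 3 when 1 library was left out. Of the genes that keep imprints, 0 were higher, against 0 to 2 when 1 library was left out (UHRF1 and EHMT1, without oeSTUB1 replicate 2), and 1 was lower, against 2 with the lowess correction. The causes were not tested.

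Signs near 0 reversed as follows, within leave-one-out ranges of -0.27 to 0.02 for PLAGL1, -0.08 to 0.04 for SGCE, -0.08 to 0.11 for RB1, -0.44 to 0.05 for IGF2R, -0.11 to 0.11 for DNMT1, -0.01 to 0.06 for CTCF, -0.13 to 0.18 for SMCHD1, -0.06 to 0.12 for ARID4B and -0.03 to 0.05 for GNAS. Without oeSTUB1 replicate 2 the log2 fold change was 0.02 for PLAGL1, 0.05 for IGF2R, 0.11 for RB1, 0.11 for DNMT1, 0.18 for SMCHD1 and -0.03 for GNAS. Without oeNC replicate 1 it was 0.03 for SGCE, 0.02 for RB1 and -0.04 for ARID4B. Without oeSTUB1 replicate 1 it was 0.04 for SGCE, -0.01 for CTCF and -0.02 for ARID4B, and without oeSTUB1 replicate 3 -0.06 for ARID4B. Median-ratio scaling gave -0.004 for GNAS and -0.01 for ARID4B, and quantile normalization -0.07 for GNAS, -0.05 for CTCF and -0.01 for ARID4B. The lowess correction gave -0.0016 for CTCF and 0.08 for SMCHD1, and the ratio of means 0.01 for RB1 and 0.01 for SMCHD1.

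Over all genes tested, 2088 were called, 1488 with the replicate block, 3322 with the lowess correction, and from 927 to 4118 when 1 library was left out, the highest number without oeSTUB1 replicate 2. Whether the replicate numbers pair the libraries is not known. Deviations of same-numbered libraries correlated at -0.0491, -0.0521 and 0.0617 across 15353 genes. This cannot decide the question with so few libraries and with oeSTUB1 replicate 2 standing apart by gene length. With the replicate block H19 was called (adjusted p = 0.025) and MEST was not (adjusted p = 0.076), while MEG3 and PEG10 kept their calls. IGF2BP3 was lost with the block (0.053), without a filter (0.053) and without the trend (0.062), and INSR with a pseudocount of 0.01 (0.053), without a filter (0.10), with a filter at 1 FPKM (0.052) and without the trend (0.075). MEG3 (51 to 310 fragments), DIRAS3 (5 to 47) and IGF2 (11 to 31) rest on few fragments, which limits their precision.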
